A study of Homo sapiens with 6 samples.

Results

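The SLC25 genes encode the mitochondrial carriers, and the 48 RefSeq protein-coding genes on chromosomes 1 to 22 and X whose symbol starts with SLC25A were taken from 19974 such genes in all. A gene counted as having a gene-end peak when a listed peak lay within 1000 bp of its annotated start or end, and as having a gene-body peak when a peak overlapped it farther than that from both ends. Mitochondrial carriers are small membrane proteins that exchange nucleotides, phosphate, amino acids, carboxylic acids and cofactors, mostly across the inner mitochondrial membrane, where they couple the matrix to the cytosol. In hepatocytes they serve the urea cycle, the malate-aspartate shuttle, the export of citrate for fatty acid synthesis and the import of fatty acids as acylcarnitines.

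The data were ATAC-seq peak lists, that is, intervals where the Tn5 transposase cut open chromatin more often than the local background, from Huh7, an established human hepatocellular carcinoma line. All cells were knocked out for ARID1A, a subunit of the SWI/SNF chromatin remodelling complex, and stably carried a Flag-tagged ARID1A by lentivirus. In the V2084D shSTUB1 group this was the missense form V2084D, together with knockdown of STUB1, a chaperone-linked ubiquitin ligase. The V2084D group carried the missense form alone, and the WT group carried wild-type ARID1A. Each group had 2 libraries. The labels say neither whether the knockout was 1 clone nor whether replicates were separate cultures, and the titles name no control hairpin, so that STUB1 knockdown and the presence of a hairpin cannot be told apart.

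The lists differed in length. They held 21728 and 15326 summits in V2084D shSTUB1, 9231 and 30768 in V2084D, and 10441 and 7401 in WT. Reads at the summit, recovered from the deposited fold and p, had a median over the carriers' gene-end peaks of 7.5 to 17.0 per library, so that the lists leave out regions with few reads and a gene without a listed peak is not shown to be closed. Of 10 hepatocyte markers, 8 (among them ALB, APOB, TTR, AFP, HNF4A, FOXA2 and SERPINA1) had no gene-end peak in any library, while APOA1 had one in 3 libraries and FOXA1 in 1. Of 10 leukocyte, endothelial and fibroblast markers, 7 had none, with peaks at SPI1 in 3 libraries, KDR in 5 and COL1A1 in 6, so these lists neither mark the labelled cell type nor separate it from others.

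Promoters of carriers named in the comparisons below are shown as the 250 bases before the annotated start (RefSeq, GRCh38.p14, 5′ to 3′ on the gene's strand), with matches to the searched motifs in capitals. The peaks compared do not always cover these bases. SLC25A24 (chr1:108200344-108200593, minus strand) and SLC25A6 (chrX:1392114-1392363, minus) separated V2084D from WT in presence. SLC25A1 (chr22:19178737-19178986, minus), SLC25A15 (chr13:40789361-40789610, plus), SLC25A29 (chr14:100306445-100306694, minus) and SLC25A45 (chr11:65382647-65382896, minus) separated V2084D shSTUB1 from WT. SLC25A3 (chr12:98593436-98593685, plus) had a peak in all 6 libraries and SLC25A47 (chr14:100323089-100323338, plus) in none.
SLC25A6: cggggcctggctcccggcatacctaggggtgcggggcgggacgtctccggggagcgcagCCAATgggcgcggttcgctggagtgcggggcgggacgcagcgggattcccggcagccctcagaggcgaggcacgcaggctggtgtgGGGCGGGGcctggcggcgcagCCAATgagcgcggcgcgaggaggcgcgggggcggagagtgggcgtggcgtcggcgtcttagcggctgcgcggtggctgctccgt
SLC25A24: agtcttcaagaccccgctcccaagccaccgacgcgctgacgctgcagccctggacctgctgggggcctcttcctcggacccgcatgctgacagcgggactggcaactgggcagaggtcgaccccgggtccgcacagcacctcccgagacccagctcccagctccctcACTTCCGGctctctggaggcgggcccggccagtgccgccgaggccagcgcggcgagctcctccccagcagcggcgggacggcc
SLC25A1: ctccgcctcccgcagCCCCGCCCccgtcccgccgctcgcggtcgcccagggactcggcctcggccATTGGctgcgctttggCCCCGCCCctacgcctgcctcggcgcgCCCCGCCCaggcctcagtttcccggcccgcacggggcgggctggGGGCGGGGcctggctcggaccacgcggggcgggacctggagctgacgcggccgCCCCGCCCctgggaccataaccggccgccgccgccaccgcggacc
SLC25A15: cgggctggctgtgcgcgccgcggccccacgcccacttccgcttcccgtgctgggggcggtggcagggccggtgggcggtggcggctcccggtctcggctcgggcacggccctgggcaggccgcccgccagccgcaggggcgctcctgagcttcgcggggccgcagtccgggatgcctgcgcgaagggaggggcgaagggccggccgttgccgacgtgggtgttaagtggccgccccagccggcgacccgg
SLC25A29: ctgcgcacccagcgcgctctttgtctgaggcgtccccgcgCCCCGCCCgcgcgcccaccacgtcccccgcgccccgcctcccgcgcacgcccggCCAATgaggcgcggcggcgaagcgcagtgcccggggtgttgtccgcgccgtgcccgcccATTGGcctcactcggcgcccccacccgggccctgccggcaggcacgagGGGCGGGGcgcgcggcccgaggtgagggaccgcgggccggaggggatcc
SLC25A45: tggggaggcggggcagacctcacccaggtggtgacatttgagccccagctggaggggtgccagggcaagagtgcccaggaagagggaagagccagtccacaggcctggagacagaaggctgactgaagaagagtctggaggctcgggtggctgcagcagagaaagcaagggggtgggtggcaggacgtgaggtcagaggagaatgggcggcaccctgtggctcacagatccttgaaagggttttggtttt
SLC25A3: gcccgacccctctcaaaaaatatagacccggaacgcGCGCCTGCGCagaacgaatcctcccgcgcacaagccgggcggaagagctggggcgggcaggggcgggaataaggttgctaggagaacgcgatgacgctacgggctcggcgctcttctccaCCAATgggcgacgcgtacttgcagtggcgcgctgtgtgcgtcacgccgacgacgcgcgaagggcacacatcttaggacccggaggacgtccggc
SLC25A47: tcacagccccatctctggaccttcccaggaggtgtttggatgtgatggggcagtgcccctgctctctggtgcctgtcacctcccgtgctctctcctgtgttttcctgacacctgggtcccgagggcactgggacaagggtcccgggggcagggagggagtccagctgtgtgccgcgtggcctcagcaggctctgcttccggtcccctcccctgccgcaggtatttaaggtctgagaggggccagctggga
In SLC25A6 the capitals mark 2 CCAAT boxes (NFY) and 1 SP1 box, in SLC25A24 1 ETS/GABPA match on the reverse strand, and in SLC25A1 1 CCAAT box and 5 SP1 boxes, read on either strand. In SLC25A29 they mark 2 CCAAT boxes and 2 SP1 boxes, and in SLC25A3 1 NRF1 match and 1 CCAAT box. The printed bases of SLC25A15, SLC25A45 and SLC25A47 held no match, which says only that these letters are not in this window.

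Carrier genes had a gene-end peak in most lists. Of the 48 genes, 17 (35.4%) were listed in all 6 libraries, against 15.8% of all protein-coding genes, and 7 (14.6%) in none, against 41.8%. The other 24 had one in 1 to 5 libraries. The 338 other SLC genes, which mostly serve other membranes, stood at 9.76% in all 6 libraries and 49.4% in none. These shares are descriptions, and no test was made of their difference.

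By library, 36 and 32 carriers had a gene-end peak in V2084D shSTUB1 (75% and 66.7%, with 48.1% and 40.6% of all genes). In V2084D there were 25 and 37 (52.1% and 77.1%, with 31.1% and 54.7% of all genes), and in WT 28 and 24 (58.3% and 50%, with 32.3% and 24.2% of all genes). The order of the 6 libraries by carriers was their order by number of summits, from V2084D replicate 2 at the top to WT replicate 2 at the bottom. The libraries of V2084D thus lay on both sides of WT replicate 1.

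**Figure D1:**
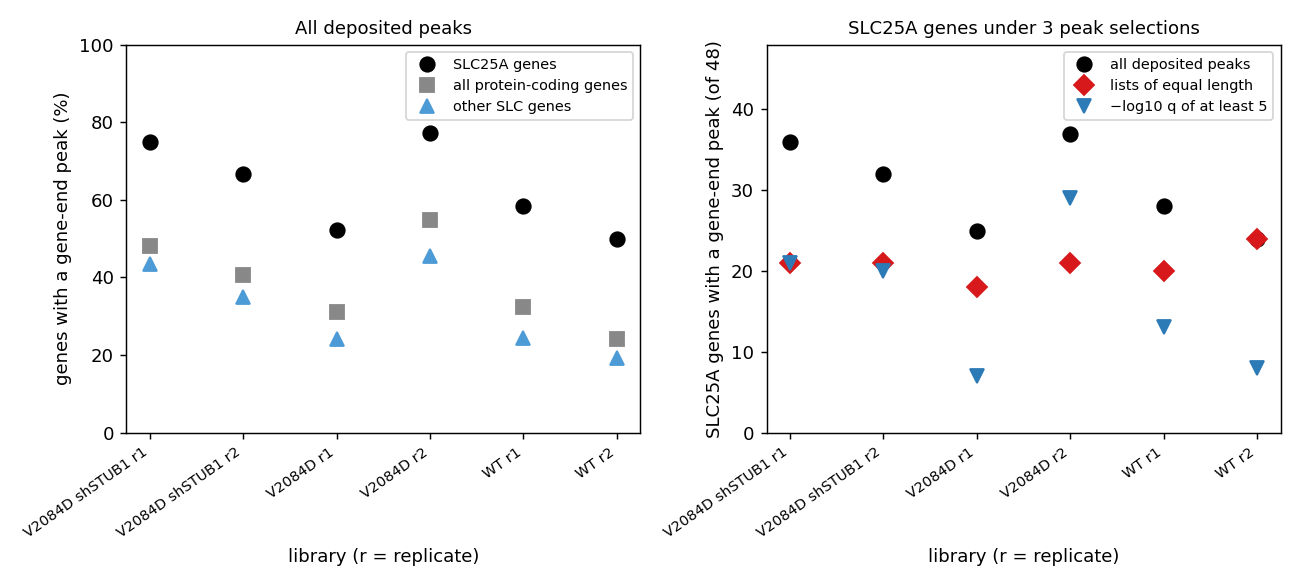
Left, the percentage of SLC25A genes (circles), all protein-coding genes (squares) and other SLC genes (triangles) with a gene-end peak in each library. Right, the number of the 48 SLC25A genes with one when all deposited peaks, lists of equal length or peaks with a −log10 q of at least 5 were used. With all peaks the carriers stand above both other sets in each of the 6 libraries, and at equal length WT replicate 2 has 24 against 18 to 21 in the other 5.

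The mean number of carriers with a gene-end peak was 31.0 ± 8.49 in V2084D and 26.0 ± 2.83 in WT (SD, n = 2 each), a difference of 5.0 that gave p = 0.667 in an exact two-sided permutation test over libraries. Without V2084D replicate 2 the difference was -1.0, without V2084D replicate 1 it was 11, and without WT replicate 2 it was 3.0. Between V2084D shSTUB1 (34.0 ± 2.83) and V2084D (31.0 ± 8.49) it was 3.0 (exact permutation p = 1.0, n = 2 each), and without V2084D replicate 1 it was -3.0. Without V2084D shSTUB1 replicate 1 it was 1.0, without V2084D shSTUB1 replicate 2 it was 5.0, and without V2084D replicate 2 it was 9.0. Between V2084D shSTUB1 (34.0 ± 2.83) and WT (26.0 ± 2.83) it was 8.0, with groups that did not overlap and an exact permutation p = 0.333 (n = 2 each), the smallest that 2 against 2 libraries allow. The comparisons share libraries, and over all genes the group means stood in ratios of 1.52, 1.03 and 1.57 in the same order, against 1.19, 1.1 and 1.31 for the carriers. With every list cut to its 7234 strongest summits, the number in the shortest list, carriers with a gene-end peak numbered 21 and 21 in V2084D shSTUB1, 18 and 21 in V2084D, and 20 and 24 in WT. The differences of V2084D and of V2084D shSTUB1 from WT then turned to -2.5 and -1.0.

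Among the carriers of adenine nucleotides and phosphate, 4 of 9 were listed at a gene end in all 6 libraries. SLC25A3, which brings phosphate for ATP synthesis into the matrix, had folds over local background of 7.14 and 9.04 in V2084D shSTUB1, 8.54 and 3.54 in V2084D, and 6.79 and 5.19 in WT. Its peaks covered 119 and 250 of the 250 printed bases in V2084D shSTUB1, 250 and 250 in V2084D, and 142 and 205 in WT. Both V2084D shSTUB1 folds were above both WT folds, and the V2084D folds overlapped with those of both other groups. The lowest fold came from the longest list, where its summit rested on 6 reads. Folds were deposited per list, and how many of all genes had folds in such an order was not counted. For this and the other carriers, the order of folds is thus only a description. SLC25A23, a calcium-regulated ATP-Mg/phosphate carrier, reached folds of 7.20 and 6.15 in V2084D shSTUB1, 6.06 and 8.39 in V2084D, and 10.36 and 5.73 in WT. SLC25A41, its relative on the neighbouring locus, had 8.06 and 6.69 in V2084D shSTUB1, 6.18 and 7.01 in V2084D, and 8.02 and 6.76 in WT, and its peak also lay within 1000 bp of an end of KHSRP, an RNA-binding protein gene, in all 6 libraries. SLC25A25, another ATP-Mg/phosphate carrier, had 8.81 and 5.28 in V2084D shSTUB1, 4.33 and 7.43 in V2084D, and 6.78 and 9.38 in WT, from peaks within 1000 bp of an end of NAIF1.

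The ADP/ATP carriers, which export the ATP made in the matrix, were listed at a gene end in 0 (SLC25A31) to 5 (SLC25A5) libraries. SLC25A5, the isoform of proliferating cells, had folds of 4.95 in V2084D shSTUB1 replicate 1, 5.77 and 5.06 in V2084D, and 5.22 and 5.41 in WT, with none in V2084D shSTUB1 replicate 2. The summits of these peaks were spread over more than 1000 bp around the gene's start, and not all of the peaks overlapped. SLC25A4, the heart and muscle isoform, had 8.75 in V2084D shSTUB1 replicate 1, 5.84 in V2084D replicate 2 and 5.30 in WT replicate 2. Each group thus had a gene-end peak in 1 of its 2 libraries. SLC25A31, the germ cell isoform, had no gene-end or gene-body peak in any library. SLC25A6 and SLC25A24 are described with the group comparisons.

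Of the 5 carriers of carboxylates and carnitine, SLC25A11, which exchanges 2-oxoglutarate for malate, had a peak in all 6 libraries. Its folds were 7.75 and 6.47 in V2084D shSTUB1, 5.83 and 7.63 in V2084D, and 6.0 and 7.41 in WT, and an end of RNF167 lay within 1000 bp of the peak each time. SLC25A20, which imports acylcarnitines for fatty acid oxidation, had 5.11 in V2084D shSTUB1 replicate 1, 5.36 and 7.59 in V2084D, and 7.79 in WT replicate 2. SLC25A21, a carrier of oxodicarboxylates, had 8.26 and 7.98 in V2084D shSTUB1, 8.58 in V2084D replicate 2 and 6.02 in WT replicate 1. The dicarboxylate carrier SLC25A10 had 4.30 in V2084D replicate 2 and 5.0 in WT replicate 2, from peaks that did not overlap. In presence, none of SLC25A10, SLC25A11, SLC25A20 and SLC25A21 separated a pair of groups, and SLC25A1 is described with the group comparisons.

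Of the 9 amino acid carriers, 3 had a gene-end peak in every library. SLC25A13, citrin, the aspartate-glutamate carrier of liver, had folds of 5.45 and 8.24 in V2084D shSTUB1, 4.71 and 8.11 in V2084D, and 5.56 and 4.61 in WT. SLC25A12, its isoform in brain and muscle, had 8.33 and 4.94 in V2084D shSTUB1, 6.52 and 7.89 in V2084D, and 6.45 in WT replicate 2. SLC25A38, a glycine carrier needed for heme synthesis, had 6.52 and 5.96 in V2084D shSTUB1, 5.38 and 6.67 in V2084D, and 5.38 and 6.04 in WT. The folds of the groups overlapped for SLC25A13 and SLC25A38. For SLC25A12 both V2084D folds were above the single WT fold, the nearer with 6.52 against 6.45, an order not counted over all genes. SLC25A44, a carrier of branched-chain amino acids, had folds of 7.66 and 11.06 in V2084D shSTUB1, 7.53 and 13.79 in V2084D, and 7.46 and 7.73 in WT, from peaks at its far end, within 1000 bp of an end of PMF1. The 13.79 was the highest fold of any carrier peak at a gene end, on 47 reads. At its own annotated start SLC25A44 had folds of 7.07 and 6.18 in V2084D shSTUB1, 8.33 in V2084D replicate 2, and 5.70 and 7.65 in WT. The glutamate carrier SLC25A22 had 4.22 in V2084D shSTUB1 replicate 1, 3.85 and 5.26 in V2084D, and 5.34 in WT replicate 1. SLC25A2, an ornithine carrier, and SLC25A18, a glutamate carrier, had no gene-end peak.

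Carriers of cofactors, nucleotides, iron and glutathione were the class with most genes present throughout, 8 of 14. SLC25A32, a folate and flavin carrier, had folds of 9.20 and 8.57 in V2084D shSTUB1, 6.54 and 7.14 in V2084D, and 9.18 and 4.72 in WT, from a peak shared with DCAF13. SLC25A16, linked to coenzyme A, had 6.76 and 5.88 in V2084D shSTUB1, 3.80 and 8.26 in V2084D, and 8.16 and 6.98 in WT. For SLC25A32 both V2084D shSTUB1 folds were above both V2084D folds, and for SLC25A16 both were below both WT folds. The other pairs of groups overlapped. The share of all genes with folds in such an order was not counted, so these orders do not set the carriers apart. SLC25A51, which imports NAD, SLC25A42, a coenzyme A carrier, SLC25A36, a pyrimidine nucleotide carrier, SLC25A28, an iron carrier (mitoferrin), and SLC25A40, which like SLC25A39 transports glutathione, were also among the 8. SLC25A51 had 5.12 and 7.37 in V2084D shSTUB1, 5.49 and 5.64 in V2084D, and 6.25 and 4.88 in WT. SLC25A40 had 6.31 and 6.32 in V2084D shSTUB1, 4.49 and 6.69 in V2084D, and 4.61 and 4.32 in WT, from a peak shared with DBF4. Both of its V2084D shSTUB1 folds were above both WT folds. For these 5 genes the folds ran from 3.95 in WT replicate 1 (SLC25A36) to 9.22 in V2084D replicate 2 (SLC25A28).

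SLC25A39 lacked a peak in V2084D shSTUB1 replicate 2 and V2084D replicate 1, and had 5.93 in V2084D shSTUB1 replicate 1, 6.25 in V2084D replicate 2, and 3.93 and 4.43 in WT. SLC25A17, a peroxisomal carrier of cofactors, had 9.79 and 6.11 in V2084D shSTUB1, 5.19 and 8.54 in V2084D, and 6.79 in WT replicate 1. SLC25A33, another pyrimidine nucleotide carrier, had 6.38 in V2084D shSTUB1 replicate 2 and 4.73 in WT replicate 1. SLC25A52, a close copy of SLC25A51, had neither a gene-end nor a gene-body peak, and how reads that fit both copies were placed is not recorded in the labels.

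Of the 11 uncoupling-like and other carriers, 1, SLC25A53, had a gene-end peak throughout. In V2084D replicate 1 that peak lay 58603 bp downstream of the annotated start, at the other end of the gene, and in the other 5 libraries at the start. SLC25A27, a brain uncoupling protein, had folds of 6.70 and 5.66 in V2084D shSTUB1, 12.50 in V2084D replicate 2 and 5.48 in WT replicate 1, beside an end of CYP39A1. SLC25A46, an outer membrane protein of mitochondrial dynamics, had 8.10 and 5.98 in V2084D shSTUB1, 5.62 and 10.45 in V2084D, and 4.49 in WT replicate 1. WT replicate 2 had a peak of fold 6.04 near the annotated start of SLC25A46, but its edge lay 1272 bp from the gene's end. SLC25A35 had 8.82 and 6.77 in V2084D shSTUB1, 9.20 in V2084D replicate 2, and 8.33 and 6.18 in WT. The WT replicate 2 peak was at the other end of the gene from the other 4 peaks, within 1000 bp of an end of RANGRF. SLC25A14, an uncoupling-like carrier, had 4.92 in V2084D shSTUB1 replicate 2, 3.68 in V2084D replicate 2 and 3.85 in WT replicate 1, each on 4 or 5 reads. SLC25A34 and SLC25A43 had a peak of 3 reads in 1 library each (3.28 in V2084D shSTUB1 replicate 2 and 3.23 in V2084D shSTUB1 replicate 1). SLC25A48 had a gene-end peak in V2084D replicate 2 and WT replicate 1. SLC25A30 had none, nor had SLC25A47, a carrier known for its expression in liver.

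**Figure D2:**
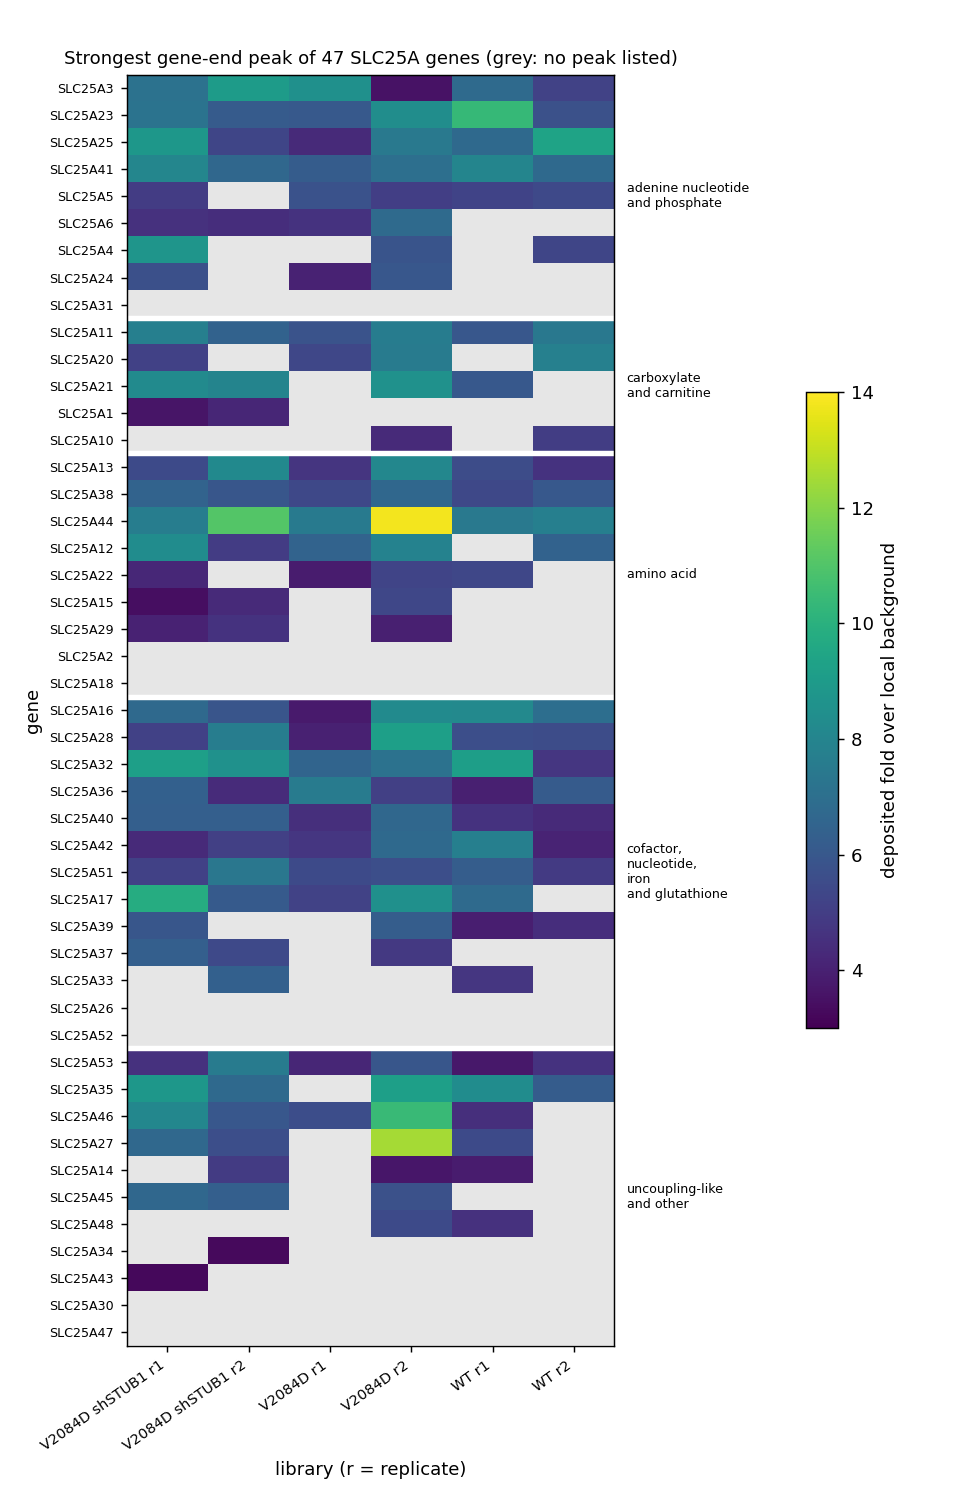
Deposited fold over local background at the ends of 47 SLC25A genes (rows, by substrate class, with 1 carrier not drawn) for the peak with the highest −log10 q in each of the 6 libraries (columns, r for replicate), with grey where none was listed. Of the 47 rows, 16 are filled throughout and 7 are grey throughout, and V2084D replicate 1 and WT replicates 1 and 2 hold the most grey cells, with 24, 27 and 23 filled.

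The comparison of V2084D with WT asks which regions are listed as open with the missense form and not with wild-type ARID1A. Presence in V2084D replicates 1 and 2 together with absence from WT was seen at the ends of 2 carriers (4.17%), SLC25A24 and SLC25A6, against 5.07% of all genes. The reverse held for 0 carriers, against 0.0501% of all genes. The carriers' share was thus near that of all genes in the first direction. Without V2084D replicate 1 the V2084D-only carriers numbered 6, against 18.9% of all genes. Without WT replicate 1 they numbered 5, against 12.0% of all genes, and without WT replicate 2 4, against 7.25%. The WT-only carriers numbered 2 without V2084D replicate 2, against 3.49% of all genes, and 1 without WT replicate 2, against 0.481%.

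SLC25A24 (chromosome 1, 108134043 to 108200343), an ATP-Mg/phosphate carrier of dividing cells, had folds of 4.07 and 5.98 in V2084D, on 6 and 13 reads, and no peak in either WT library. V2084D shSTUB1 replicate 1 had a fold of 5.68, on 9 reads, and replicate 2 none. All 3 peaks covered the ETS/GABPA match 83 bp before the start. SLC25A6 (chromosome X, 1386152 to 1392113), an ADP/ATP carrier gene of the pseudoautosomal region, had 4.55 and 4.43 in V2084D shSTUB1, 4.60 and 6.82 in V2084D, and no peak in WT. Reads at its summits numbered 8 and 6 in V2084D shSTUB1 and 7 and 14 in V2084D. The peaks covered 250 and 127 of the 250 printed bases in V2084D shSTUB1 and 200 and 250 in V2084D, and an end of LOC124900597 lay within 1000 bp of them. SLC25A6 has a second copy on chromosome Y, and whether that copy was masked is not recorded in the labels. Within the list of V2084D replicate 1 the peaks stood at percentiles of 8.2 for SLC25A24 and 20.4 for SLC25A6, and within that of V2084D replicate 2 at 61.9 and 73.2, lists of different length. Neither gene kept the pattern with a −log10 q of at least 5 or with lists of equal length. At equal length SLC25A46 was the V2084D-only carrier by its gene ends, although WT replicate 2 had a peak near its annotated start.

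The comparison of V2084D shSTUB1 with V2084D asks what the hairpin changes in cells with the missense form. Presence in the 2 V2084D shSTUB1 libraries with absence from V2084D was seen for 1 carrier (2.08%), against 0.365% of all genes. The reverse was found for 0 carriers, against 0.656% of all genes. The carrier was SLC25A1 (chromosome 22, 19175581 to 19178736), which exports citrate to the cytosol for fatty acid and sterol synthesis. It had folds of 3.61 and 4.17 in V2084D shSTUB1, on 13 reads each, and no gene-end peak in V2084D or in WT. The peaks, at percentiles of 16.4 and 29.7, covered 150 and 54 of the 250 bases shown above, and an end of CLTCL1 lay within 1000 bp of both. No peak was called there in V2084D replicate 2, the longest list. SLC25A1 did not keep the pattern with a −log10 q of at least 5 or at equal length. At equal length the V2084D shSTUB1-only carrier was SLC25A45, against 1.28% of all genes. V2084D replicate 1 had an SLC25A45 peak at the annotated start, but its edge lay 1091 bp from the gene's end. At equal length 3 carriers, SLC25A20 and SLC25A42 among them, were V2084D-only, against 1.68% of all genes. Without V2084D replicate 2 the V2084D shSTUB1-only count was 8, against 10.8% of all genes. Without V2084D shSTUB1 replicate 1 it was 3, against 0.856% of all genes, and without V2084D shSTUB1 replicate 2 it was 2, against 2.05%. The V2084D-only count was 4 without V2084D shSTUB1 replicate 1, against 3.32% of all genes, and 2 without V2084D replicate 1, against 6.24%.

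The comparison of V2084D shSTUB1 with WT spans both the missense form and the hairpin. In it 6 carriers (12.5%) were listed in the 2 V2084D shSTUB1 libraries but not in WT, against 7.07% of all genes. The reverse held for 0 carriers, against 0.135% of all genes. The 6 were SLC25A1, SLC25A6, SLC25A15, SLC25A29, SLC25A37 and SLC25A45, and 5 of them also had a peak in V2084D replicate 2. Without WT replicate 1 the count was 10, against 15.8% of all genes. The WT-only count was 2 without V2084D shSTUB1 replicate 1 (with 0.981% of all genes), 1 without WT replicate 1 (0.496%) and 1 without WT replicate 2 (0.931%). With a −log10 q of at least 5 the V2084D shSTUB1-only count was again 6, against 6.11% of all genes. SLC25A45 was the only carrier shared with the first 6, the others being SLC25A21, SLC25A27, SLC25A38, SLC25A40 and SLC25A46. With lists of equal length 2 carriers, SLC25A45 and SLC25A46, were listed in V2084D shSTUB1 but not in WT, against 1.75% of all genes. The reverse held for 3, SLC25A5 and SLC25A42 among them, also against 1.75%. For SLC25A46 the gene-end rule left out the WT replicate 2 peak near its annotated start.

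SLC25A15 (chromosome 13, 40789611 to 40812460), the ornithine carrier of the urea cycle, had folds of 3.41 and 4.32 in V2084D shSTUB1, 5.36 in V2084D replicate 2 and no peak in WT. Its V2084D shSTUB1 peaks rested on 5 and 6 reads, at percentiles of 0.3 and 11.4, and all 3 peaks lay downstream of the start, with summits 359 to 512 bp from it. They covered 0 of the 250 printed bases. SLC25A29 (chromosome 14, 100278567 to 100306444), a carrier of basic amino acids, had 4.07 and 4.59 in V2084D shSTUB1, 3.96 in V2084D replicate 2 and none in WT. Its 2 V2084D shSTUB1 peaks lay 114 bp apart and did not overlap, so they are not the same region. Both covered 0 of the 250 printed bases, while 172 of these were covered in V2084D replicate 2. SLC25A37 (chromosome 8, 23528956 to 23575463), the mitoferrin of red cell precursors, had 6.31 and 5.43 in V2084D shSTUB1, 4.81 in V2084D replicate 2 and none in WT. Its percentiles in V2084D shSTUB1 were 71.3 and 45.4.

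SLC25A45 (chromosome 11, 65375192 to 65383701) had gene-end folds of 6.69 and 6.31 in V2084D shSTUB1 and 5.72 in V2084D replicate 2. Its annotated start lies 1055 bp inside the gene's outer boundary, and around that start it had a peak in all 6 libraries. Their folds were 6.69 and 6.31 in V2084D shSTUB1, 6.06 and 5.72 in V2084D, and 4.63 and 5.67 in WT. The near edges of the peaks lay 811 and 974 bp from the gene's end in V2084D shSTUB1, 1091 and 788 bp in V2084D, and 1128 and 1063 bp in WT, on either side of the 1000 bp limit. The next carriers by distance to the limit were SLC25A46, at 810 bp in V2084D shSTUB1 replicate 2, 800 bp in V2084D replicate 1 and 1272 bp in WT replicate 2, and SLC25A35, at 1219 bp in V2084D replicate 1. Looked for at the start, or with a window of 2000 bp, SLC25A45 did not separate the groups and 5 of the 6 carriers did. For SLC25A37, which has no start in the annotation used, the whole gene was searched in place of the start. With a window of 500 bp 4 carriers separated the groups, and SLC25A29 was lost as well.

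**Figure D3:**
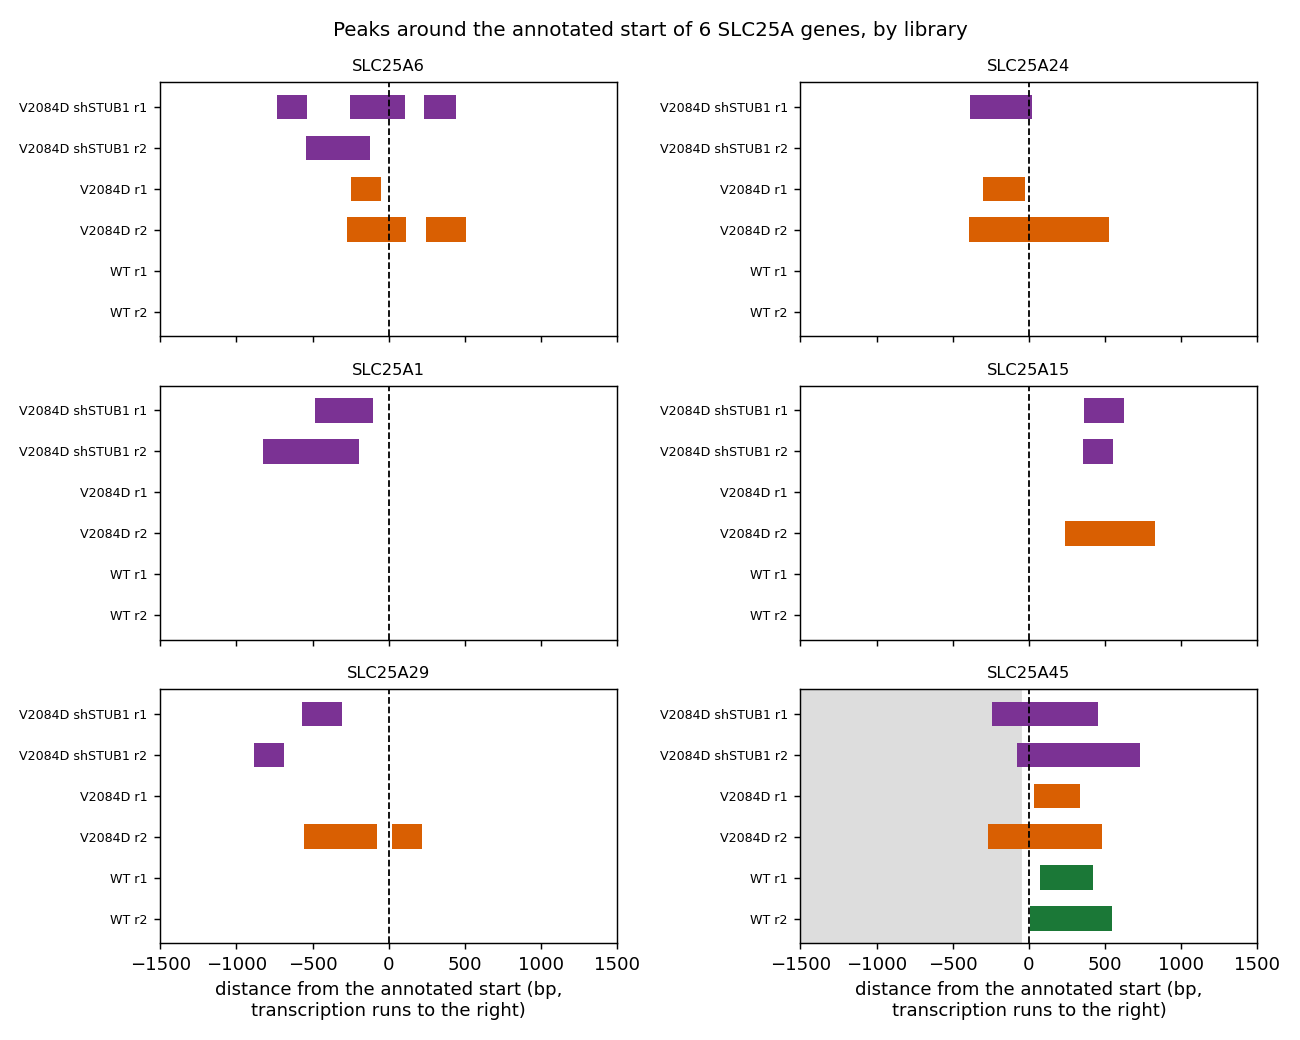
Extent of every listed peak within 1500 bp of the annotated start (dashed line) of 6 SLC25A genes, as distance in bp along the direction of transcription, 1 row per library, with V2084D shSTUB1 in purple, V2084D in orange and WT in green. The grey zone at SLC25A45 is the part within 1000 bp of the gene's outer boundary, which the peaks of V2084D replicate 1 and both WT libraries stop short of, while the other 5 genes have no WT peak.

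Ranks show how near the listing threshold such genes lay. The carriers' gene-end peaks had a median percentile of −log10 q within their lists of 71.8 and 65.4 in V2084D shSTUB1, 48.8 and 78.1 in V2084D, and 60.6 and 51.8 in WT. Gene-end peaks of all genes had medians of 66.9 and 62.0 in V2084D shSTUB1, 56.9 and 72.5 in V2084D, and 59.5 and 57.3 in WT. Each pair of medians holds within its own list, and says nothing of a difference between libraries. Among the carriers present in all 6 libraries, the highest means of the 6 within-list percentiles, used to choose the genes named here, belonged to SLC25A44 (94.4), SLC25A41 (86.8), SLC25A11 (82.3), SLC25A23 (81.6), SLC25A32 (81.1), SLC25A25 (74.5), SLC25A16 (68.1), SLC25A3 (64.7) and SLC25A38 (63.3). Of these, SLC25A44, SLC25A41, SLC25A11, SLC25A32 and SLC25A25 shared their peak with an end of another protein-coding gene. Over all 41 carriers with a gene-end peak, 15 shared one in this way in at least 1 library, and 26 did not. The share over all protein-coding genes with a gene-end peak was not counted, so these counts do not set the carriers apart.

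**Figure D4:**
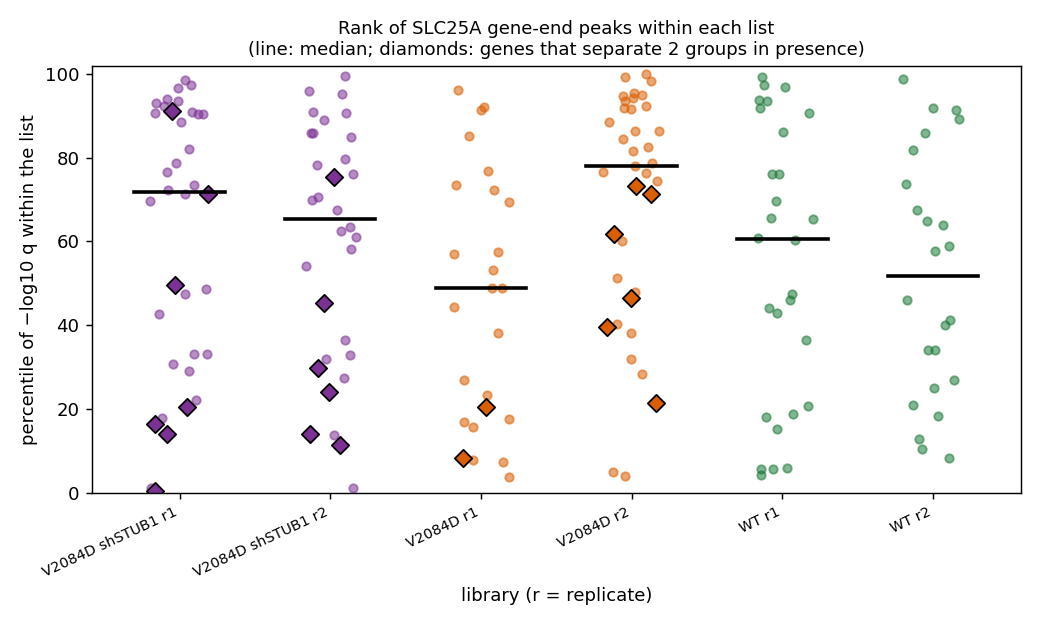
Percentile of −log10 q, within its own list, of each SLC25A gene-end peak (points) with the median per library (line), coloured by group, and with diamonds for the 7 genes that separate a pair of groups in presence. Each column is a ranking within 1 list, and lists differ in length, so heights are read within a column. In V2084D replicate 1 the median is 48.8 and the diamonds lie at 8.2 and 20.4.

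Several carriers had their peaks inside the gene. A gene-body peak was listed for 17 and 13 carriers in V2084D shSTUB1, where 18.0% and 13.2% of all genes had one. In V2084D there were 11 and 17 carriers, with 7.83% and 23.4% of all genes, and in WT 11 and 6, with 9.25% and 6.41% of all genes. In 2 or more libraries 18 carriers (37.5%) had one, against 18.9% of all genes. In all 6 libraries it was 5 carriers (10.4%), SLC25A21, SLC25A26, SLC25A28, SLC25A42 and SLC25A45, against 2.96% of all genes. SLC25A26, which carries S-adenosylmethionine, had no gene-end peak in any library, but its annotated start lies 87132 bp inside the gene, and there it had folds of 7.14 and 7.53 in V2084D shSTUB1, 6.49 and 7.41 in V2084D, and 8.44 and 6.41 in WT. SLC25A48, a choline carrier, likewise had 6.91 and 7.83 in V2084D shSTUB1, 6.17 and 7.55 in V2084D, and 5.26 in WT replicate 1 at a start 255491 bp inside the gene. SLC25A28 had 8.49 and 6.69 in V2084D shSTUB1, 5.91 and 7.40 in V2084D, and 8.0 and 6.42 in WT at its annotated start, beside separate peaks at the outer end that it shares with ENTPD7. The outer-boundary rule thus counted a neighbour's end or none for genes whose own start was listed as open.

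SLC25A30, an uncoupling-like carrier, had no gene-end peak and a gene-body peak in 5 libraries, with folds of 6.72 and 7.87 in V2084D shSTUB1, 5.49 and 8.33 in V2084D, and 5.73 in WT replicate 1. SLC25A29 had a body peak 20626 to 21297 bp downstream of its start in every library but WT replicate 2, with 6.40 and 5.14 in V2084D shSTUB1, 5.75 and 7.91 in V2084D, and 6.13 in WT replicate 1. This interior region was listed in a WT library in which the start of SLC25A29 was not. SLC25A42 had a body peak in all 6 libraries, 41791 to 42164 bp downstream of its start, with folds of 4.91 and 4.74 in V2084D shSTUB1, 6.04 and 6.59 in V2084D, and 4.55 and 5.26 in WT. SLC25A21 had one in all 6 as well, but at different places of a long gene, with summits 55127 to 337470 bp downstream of its start. SLC25A35 and SLC25A25 had one in every library but WT replicate 2, and in SLC25A25 it lay at the annotated start, with folds of 5.81 and 4.81 in V2084D shSTUB1, 4.95 and 5.63 in V2084D, and 3.77 in WT replicate 1. For SLC25A35 the WT replicate 2 gene-end peak (8288514 to 8288713) overlapped the body peaks of both V2084D shSTUB1 libraries (8288548 to 8288766 and 8288573 to 8288772). It stopped short of the 1000 bp limit that those peaks crossed, so WT replicate 2 did not lack a peak in that region. SLC25A46 had one in every library but WT replicate 1, from the peak at its annotated start. SLC25A53 had body peaks in the 2 V2084D shSTUB1 libraries alone, with folds of 5.33 and 4.23 on 7 and 5 reads. These peaks did not overlap, and an end of ZCCHC18 lay within 1000 bp of each. The share of all genes with body peaks in these 2 libraries alone was not counted. SLC25A38 had body peaks in both V2084D shSTUB1 libraries and V2084D replicate 2. SLC25A22, SLC25A33, SLC25A36 and SLC25A43 had them in V2084D shSTUB1 replicate 1 and V2084D replicate 2, at places that did not overlap for SLC25A36 and SLC25A43. SLC25A13 had them in V2084D replicate 2 and WT replicate 1.

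**Figure D5:**
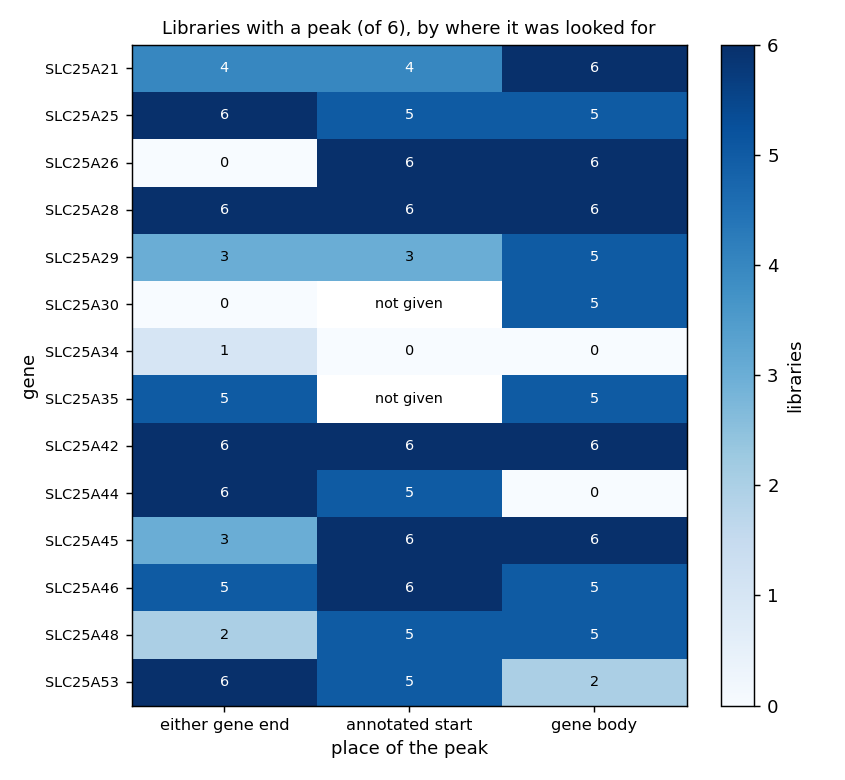
Number of libraries, of 6, with a peak at either gene end, at the annotated start or in the body of the SLC25A genes for which ends and start differ or with a body peak in at least 5 libraries. SLC25A26 has 0, 6 and 6 and SLC25A45 has 3, 6 and 6, while SLC25A34 has 1, 0 and 0.

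With the annotated start in place of the ends, 40 carriers could be placed. Of these 13 (32.5%) had a peak within 1000 bp of it in all 6 libraries, against 16.8% of all 15812 genes with an annotated start, and 5 (12.5%) in none, against 40.4%. The 5 were SLC25A18, SLC25A31, SLC25A34, SLC25A47 and SLC25A52. Summits lay a median of 38 bp before the start, and 109 of 159 (68.6%) within 300 bp of it.

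The carriers' promoters, the 300 bases from 250 before to 50 after the start, held a median of 27 CpG dinucleotides and 66.2% GC, against 22 and 62.7% over all 15812 promoters. The median CpG count was 25 for the 13 carriers with a start peak in all 6 libraries and 33 for the 22 with one in 1 to 5. For the 5 with none it was 9, with a range of 3 to 28. Over all genes it was 26 with a start peak in all 6 and 7 with none. SLC25A45 had 5 CpG and a start peak in all 6 libraries, and SLC25A31 had 28 CpG and no start peak.

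Motifs were searched on both strands, and a base could belong to more than 1 match. CCAAT (NFY) was found in 19 of 40 carrier promoters (47.5%, against 36.3% of all), and GGGCGGGG (SP1) in 14 (35%, against 31.6%). The E-box CACGTG was in 7 (17.5%, against 8.87%), and the motif of NRF1, a regulator of nuclear genes for mitochondrial proteins, in 5 (12.5%, against 8.59%). CCGGAAGT (ETS/GABPA) was in 3 (7.5%, against 6.2%), TGACGTCA (CREB) in 3 (7.5%, against 2.59%) and TATAAA in 3 (7.5%, against 9.64%). The motif of YY1, TCAAGGTCA (ERRA) and the motif of ZNF143 were in 0 carriers, against 3.26%, 0.24% and 0.373% of all promoters. SLC25A42 had the most of any motif, 6 CCAAT boxes, and a start peak in all 6 libraries. The promoter of SLC25A46 held 2 ETS/GABPA matches and 1 E-box. These counts are descriptions of letters and were not related to the groups.

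Related mitochondrial transport genes were set beside the carriers. Of 5 carriers of the same family with other names, UCP2, an uncoupling protein, and MTCH2, an outer membrane insertase, were listed in all 6 libraries, MTCH1 had one in 5, and the uncoupling protein genes UCP1 and UCP3 had none. The route that imports carriers through the TIM22 complex had 5 of 13 genes in all 6 libraries (38.5%) and 0 of 13 in none. AGK, a kinase and TIM22 subunit, was listed in all V2084D shSTUB1 and V2084D libraries but not in WT. Its folds were 5.75 and 3.68 in V2084D shSTUB1 and 3.68 and 5.56 in V2084D. TIMM29 and TIMM8A also had no peak in WT. Against WT, 5.07% of all genes were V2084D-only and 7.07% V2084D shSTUB1-only, and the share with both patterns was not counted. Other mitochondrial transport genes, such as the voltage-dependent anion channels and the pyruvate carrier, had 5 of 14 in all 6 libraries (35.7%) and 1 of 14 in none. VDAC3, MPC2, SFXN2, SFXN5 and MICU2 were the 5, and VDAC1 had a peak in V2084D replicate 2 alone.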

How the data were processed

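Titles place the 6 ATAC-seq libraries in 3 groups of 2. The submitters' processing notes name hg38 as build and list MACS2, Bowtie2, Picard, Trimmomatic, deepTools, bedtools and SAMtools. Their versions and settings, and whether reads were shifted to the Tn5 cut, were not given in the sources used here. Each library has 1 deposited narrowPeak list, so peaks were called per library. The fold (a ratio to local background), the −log10 p and −log10 q and the integer score of each summit are the authors' deposited values, and served to describe and rank peaks within a list. The column of summit positions holds the deposited distance of the summit from the peak start.

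Peaks on chromosomes 1 to 22 and X were kept, and 2.07% to 2.6% of summits per library lay elsewhere. Gene boundaries (GRCh38.p14), annotated starts (40 of 48 carriers, 15812 of 19974 genes) and promoter sequences came from RefSeq tables. The start of the other 8 carriers is not used here, and exons were not annotated. A gene's values are those of its peak with the highest −log10 q in the window. Reads at the summit were recovered as the whole number that satisfies both the deposited fold, (reads + 1)/(background + 1), and a Poisson p. This held for 100% of 182 carrier peaks within 0.001 in −log10 p. Presence counts carry no test. Numbers per library were compared with exact permutation tests (SciPy 1.17.1, pandas 2.3.3, Python 3.11.15), which cannot go below 0.333. P-values measure the spread between these libraries, which may be technical. Calls and read recovery were tested on simulated data.

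Named genes were the carriers that separate a pair of groups, the 10 with the highest mean percentile among those present in all 6 libraries, and those with a gene-body peak in 2 or more. All others were named by their pattern, 1 carrier and 1 hepatocyte marker are counted but not reported here, and carriers were placed in classes by known substrate. The members, lists and tests were chosen with earlier results of these data known. As alternatives, lists were cut to equal length or to a −log10 q of 5 or more, the window was set to 500 or 2000 bp, 50% of the peak had to lie in it, the annotated start replaced the ends (the whole gene where no start is given), replicates were blocked, and each library was left out.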

Additional observations from a re-analysis of the deposited data

How the results depend on the processing

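The difference in carriers with a gene-end peak kept its sign in 20 of 22 recomputations that used all libraries. The replicate blocks and the crossed block are among the 22, and their difference equals the main one by construction, so they could not change the sign. With lists of equal length it was -2.5 for V2084D minus WT and -1.0 for V2084D shSTUB1 minus WT. Counts of carriers that separate a pair of groups stayed within 1.5 times in 30 of 36 recomputations. These include counts of 0 that stayed at 0, and an unchanged count did not always hold the same carriers. Cutting at a −log10 q of 5 left 6 V2084D shSTUB1-only carriers against WT, 1 of them from the main 6. Lists of equal length gave 1 V2084D shSTUB1-only carrier against V2084D (with 1.28% of all genes), SLC25A45, where the main one was SLC25A1. In V2084D replicate 1 the near edge of the SLC25A45 peak lay 1091 bp from the gene's end, past the 1000 bp limit. With a −log10 q of at least 5, V2084D-only carriers against WT numbered 0 (with 3.44% of all genes), and V2084D shSTUB1-only carriers against V2084D 0 (with 0.466%). At equal length, V2084D-only carriers against WT numbered 1 (with 1.97% of all genes) and against V2084D shSTUB1 3 (with 1.68%). V2084D shSTUB1-only carriers against WT then numbered 2 (with 1.75%), and WT-only carriers against V2084D shSTUB1 3 (with 1.75%). Of the 6 V2084D shSTUB1-only carriers against WT, 1 (SLC25A45) kept its pattern at equal length and with the stricter q. It lost the pattern with a window of 500 or 2000 bp and with 50% of the peak in the window. The pattern was also lost at its annotated start, where all 6 libraries had a peak. With each library left out in turn, the difference ranged from -1.0 to 11 for V2084D minus WT, from -3.0 to 9.0 for V2084D shSTUB1 minus V2084D and from 6.0 to 10 for V2084D shSTUB1 minus WT. The counts then ranged from 2 to 6 for V2084D-only and 0 to 2 for WT-only carriers, from 1 to 8 for V2084D shSTUB1-only and 0 to 4 for V2084D-only carriers, and from 7 to 10 for V2084D shSTUB1-only and 0 to 2 for WT-only carriers, in the order of the comparisons. For the counts that moved when a library was left out, the shares of all genes stand with the comparisons above. The cause of these shifts was not tested.

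The labels give same-numbered libraries a shared number and nothing more. The correlations of their deviations over genes were -0.06, -0.15 and 0.04. With 2 libraries per group and lists of unequal length, these values cannot show whether a batch was shared. With the replicate block the differences were 5.0, 3.0 and 8.0, with exact sign-flip p of 1.0, 1.0 and 0.5. Crossing the numbers of V2084D shSTUB1 and V2084D, chosen after seeing the data, gave 3.0. Counts of carriers that separate groups do not depend on how libraries are paired. Peaks at weak summits of 3 to 6 reads limit what presence can show.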

Other observations

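The family also names loci that make no carrier protein. Of 42 SLC25A pseudogenes on the chromosomes used, 0 had an overlapping peak in any library. Of 7 long non-coding RNA genes named after carriers, 6 had one in at least 1 library. The shares over all pseudogenes and all long non-coding RNA genes were not counted, so these counts do not set the family apart. SLC25A28-DT, the divergent transcript of SLC25A28, had one in all 6, SLC25A30-AS1 and SLC25A5-AS1 in 5, SLC25A21-AS1 in 4, SLC25A25-AS1 in 2 and SLC25A34-AS1 in 1. The 7 lie inside or next to a carrier gene, except SLC25A25-AS1, and a peak there cannot be assigned to one of the pair.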
